A study of Homo sapiens with 4 samples.

Results

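The S100 genes encode small proteins that bind calcium through a pair of EF-hand loops and then attach to partner proteins. A list of 10 human genes of this name was followed in the uveal melanoma cell line 92.1, comprising S100A1, S100A2, S100A4, S100A6, S100A10, S100A11, S100A13, S100A16, S100B and S100PBP. The genes were taken by symbol after the Ensembl identifiers of the deposited tables had been matched to current gene names. Of the 10, 9 had a value among 11650 identifiers, and S100A2 was not analysed here. S100PBP differs from the rest in that it encodes a binding protein of S100P and not an S100 protein.

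Uveal melanoma is a tumour of the pigment cells of the eye, and 92.1 is an established line of it. RNA sequencing was done on 2 libraries of parental cells (labelled Ctrl) and 2 libraries of resistant cells (Res) of this line. The labels name neither the agent to which the cells were resistant nor a treatment, time or clone. The cell line field differs between the samples, but every title names 92.1, and the titles were followed. Whether replicate libraries stem from separate cultures is not stated, and the p-values then reflect variation among these 4 libraries alone, which may be technical.

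S100 proteins mostly form dimers. On binding calcium they open a hydrophobic surface that grips targets such as annexins and myosin heavy chains. Some are also secreted and act on receptors such as RAGE, the product of AGER. S100B is used in the clinic as a marker of melanocytic tumours and of glial cells, and S100A4 is known for its association with cell motility and metastasis. Most S100A genes lie together on the long arm of chromosome 1, while S100B lies apart on chromosome 21.

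The values are FPKM, that is, mapped fragments scaled to the length of the transcript and to the size of the library, so levels of different genes can be set side by side. The sum of FPKM over all genes ran from 282602 to 293481 in the 4 libraries, and the read depth behind each value is unknown. All 7 pigment cell markers on a fixed list had a value, and their sum ran from 2304 to 2584 FPKM in parental and from 2260 to 2992 FPKM in resistant libraries. TYRP1, a melanosome enzyme, stood at 1490 and 1484 FPKM in parental and at 2143 and 1514 FPKM in resistant libraries, and the lineage factor SOX10 at 91.8 and 73.3 against 54.9 and 54.3 FPKM. The melanin enzyme DCT was far lower in resistant libraries, at 4.88 and 5.46 FPKM in parental libraries against 0.486 and 0.517 FPKM (limma adjusted p = 0.0544). The median log2 fold change of the 7 markers was -0.41, with 5 below 0, and each had a value above 0 in all 4 libraries. Of 6 endothelial markers none had a value.

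The start regions of S100A4, the member with the largest difference between the groups, and S100A11, the most abundant member, are shown to give the letters behind the comparison of their promoters. Each run is the part of the 250 bases before the RefSeq start site (build GRCh38.p14, minus strand) that lies outside the exons of the same gene in GENCODE release 29. Capitals mark CpG dinucleotides, the sites of DNA methylation, which was not measured here.
S100A4, chr1:153545886-153546056: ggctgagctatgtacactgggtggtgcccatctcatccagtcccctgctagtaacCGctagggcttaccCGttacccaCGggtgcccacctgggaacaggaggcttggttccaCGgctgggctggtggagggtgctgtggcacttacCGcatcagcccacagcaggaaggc
S100A11, chr1:152037036-152037254: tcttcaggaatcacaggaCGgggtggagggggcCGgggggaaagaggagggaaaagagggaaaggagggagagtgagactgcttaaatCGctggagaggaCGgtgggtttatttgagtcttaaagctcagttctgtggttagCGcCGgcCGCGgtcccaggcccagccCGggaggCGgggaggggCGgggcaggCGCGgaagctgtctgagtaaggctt
The S100A4 run held 5 CpG dinucleotides in 171 bases and the S100A11 run 13 in 219 bases, at a GC content of 62.6% and 62.1%. Over the full 250 bases the counts were 7 and 15, and 24 each for S100A6 and S100A10, against a median of 11 over 35116 windows of all genes. The windows of S100A6 and S100A10 lie wholly within exons of the same gene in GENCODE release 29, unlike most bases of the S100A4 and S100A11 windows.

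In the 250 bases before the start site a search was made for TGANTCA (the AP-1 motif), CATTCC (TEAD), CACGTG (an E-box) and GGGCGG (SP1) on both strands and for TATAAA (the TATA box) on the gene's strand. Overlapping matches were counted separately. The SP1 letters occurred 3 times for S100A6, with a pair of these matches overlapping, and 1 time each for S100A10 and S100A11, and 42.6% of all windows hold them. The window of S100A4 held none of these, and it held TATAAA from 31 to 26 bases before the start, letters found in 6.8% of all windows. That match lies nearer the start than the printed run. S100A6, S100A10, S100A11 and S100A4 had no match to the AP-1, TEAD or E-box letters, which 6.57%, 11.9% and 6.34% of all windows hold. Among the other listed genes, S100A2 and S100PBP had an AP-1 match and S100A16 a TEAD match. A window of S100A13 also held TATAAA, and the SP1 letters occurred for S100A13, S100A16 and S100PBP. These matches describe the letters only, and some, such as those of S100A6 and S100A10, lie within exons of the same gene. Of the listed genes, 9 had a promoter window in RefSeq, with 15 windows in all because S100A2, S100A13, S100A16 and S100PBP have several starts.

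The resistant libraries held more mRNA of S100A4 and S100A6 and less of S100B than the parental libraries, each by a margin wider than the gap between replicates. S100A4 was 6.18-fold and S100A6 2.86-fold higher by the mean FPKM, and S100B was 2.89-fold lower. The ratio of S100A4 rests on low parental values, 0.83 and 1.56 FPKM, and that of S100B on low resistant values, 0.773 and 0.963 FPKM. S100A11, S100A13 and S100A10 were higher by 1.58-fold, 1.47-fold and 1.35-fold. S100A1 and S100PBP overlapped between the groups. None of these differences passed limma at a Benjamini-Hochberg adjusted p of 0.05, with the adjustment made over 10271 genes.

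**Figure D1:**
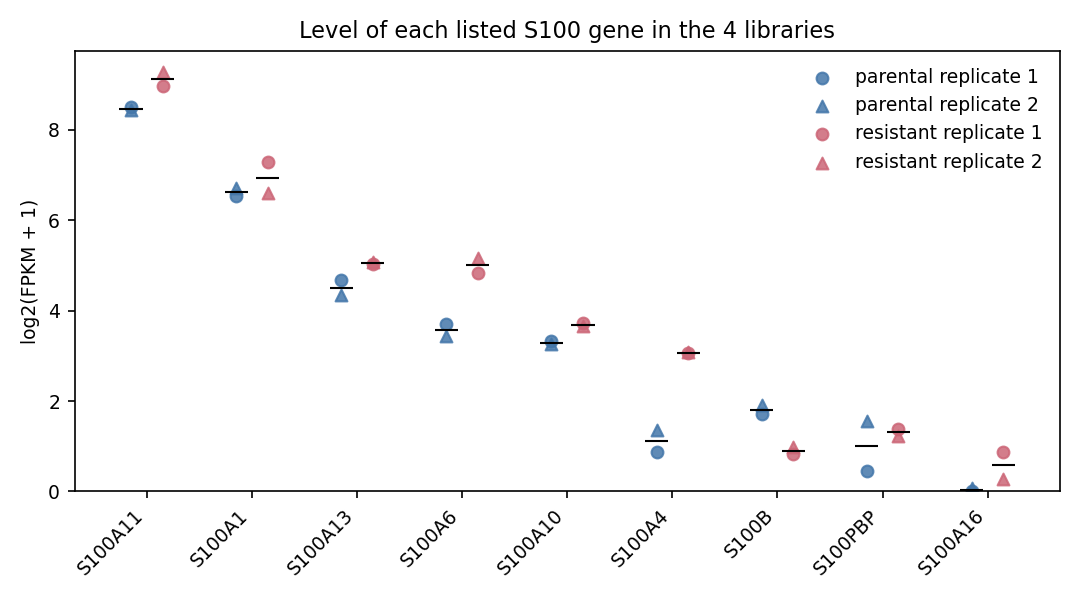
Level of the 9 listed genes with a value, as log2(FPKM + 1), with blue points for parental and red points for resistant libraries, circles for replicate 1, triangles for replicate 2 and black bars for the mean (n = 2). S100A11 is highest in every library, the red points of S100A4 and S100A6 lie above the blue ones, and those of S100B lie below.

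Across members the level spanned a wide range. S100A11, whose product binds annexin A1 and acts in membrane repair and growth control, stood at 360 and 345 FPKM in parental and at 496 and 621 FPKM in resistant libraries. Its percentile among all genes ran from 99.5 to 99.8 over the libraries. S100A1, a calcium sensor best known from heart and skeletal muscle, followed at 92.2 and 103 FPKM in parental and at 156 and 95.3 FPKM in resistant libraries. Both genes were above every other listed member in each of the 4 libraries.

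S100A13, S100A6 and S100A10 came next. S100A13 takes part in the export of FGF1 by a route outside the classical secretory pathway. Its levels were 24.5 and 19.2 FPKM in parental against 31.5 and 32.7 FPKM in resistant libraries. S100A6, or calcyclin, which binds the ubiquitin ligase adaptor CACYBP, stood at 12 and 9.81 FPKM in parental and at 27.4 and 35 FPKM in resistant libraries. S100A13 was above S100A6 in both parental libraries and in resistant replicate 1, and S100A6 was above S100A13 in resistant replicate 2, so the order of this pair in resistant cells lay within their spread.

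S100A10 forms a tetramer with annexin A2 and, unlike its relatives, does not need calcium for it. It stood at 9.04 and 8.56 FPKM in parental and at 12.2 and 11.6 FPKM in resistant libraries, where S100A6 was well above it. At the low end, S100B stood at 2.26 and 2.76 FPKM in parental and at 0.773 and 0.963 FPKM in resistant libraries. S100A4 stood at 0.83 and 1.56 FPKM in parental and at 7.3 and 7.46 FPKM in resistant libraries. In parental libraries S100B was thus above S100A4, and in resistant libraries S100A4 was above S100B, with no overlap in either group.

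S100PBP stood at 0.376 and 1.94 FPKM in parental and at 1.62 and 1.34 FPKM in resistant libraries, with both resistant values inside the parental range. S100A16, whose product binds calcium through 1 working loop per subunit in place of a pair, was listed at 0 in parental replicate 1 and stood at 0.057, 0.833 and 0.217 FPKM in the other libraries. No gene in the deposited values had a larger group mean under 0.501 FPKM, and the parental mean of S100A16 was 0.0285 FPKM. S100A16 thus had a value through its resistant level alone and could only be higher there. It lay under the minimum mean of 1 FPKM and was not tested. The other 8 members passed that minimum, S100B through its parental level, since its resistant mean was 0.868 FPKM.

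Differences were tested in limma on log2(FPKM + 1), a scale that understates the change of low genes. S100A4 differed by 1.95 ± 0.23 (log2 fold change ± SE, limma adjusted p = 0.0781). In the order of 10271 genes it ranked 17 from the highest log2 fold change. Both resistant libraries lay at nearly the same distance from the parental mean, at 1.94 and 1.97. Without parental replicate 2, the higher of the parental values, the log2 fold change was 2.20 and passed the threshold (limma adjusted p = 0.0425). Over 11 alternatives the adjusted p ran from 0.0425 to 0.143 and the log2 fold change from 1.71 to 2.59.

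S100A6 differed by 1.43 ± 0.21 (limma adjusted p = 0.0995) and ranked 64 from the highest. Its resistant libraries lay 1.26 and 1.61 above the parental mean. Adjusted p-values ran from 0.0586 to 0.279 over 12 alternatives, so no setting tried brought it past the threshold. S100B differed by -0.91 ± 0.18 (limma adjusted p = 0.141) and ranked 264 from the lowest, with resistant libraries at -0.98 and -0.83.

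S100A11 differed by 0.65 ± 0.15 (limma adjusted p = 0.175), S100A13 by 0.55 ± 0.18 (limma adjusted p = 0.271) and S100A10 by 0.39 ± 0.17 (limma adjusted p = 0.331). In S100A11 resistant replicate 2 was the higher library, at 0.82 above the parental mean against 0.49 for resistant replicate 1. S100A1 differed by 0.32 ± 0.26 (limma adjusted p = 0.567), which rests on resistant replicate 1: without it the log2 fold change was -0.03. S100PBP differed by 0.30 ± 0.37 (limma adjusted p = 0.723), and by -0.25 without parental replicate 1.

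**Figure D2:**
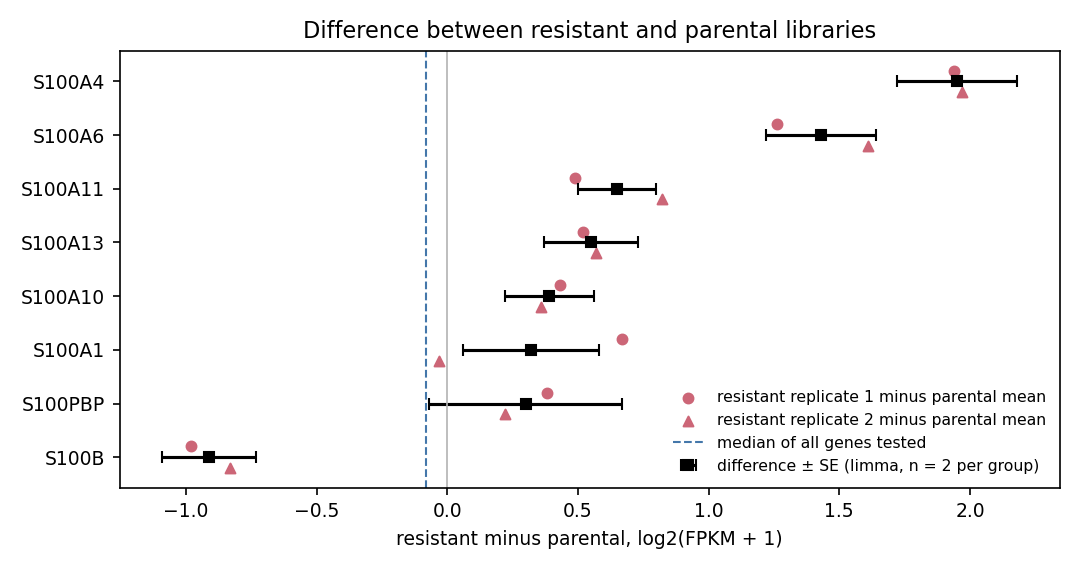
Resistant minus parental difference on the log2(FPKM + 1) scale for the 8 members tested (black squares, ± SE from limma, n = 2 per group), with each resistant library against the parental mean (red) and the median of all genes tested, -0.08 (dashed). S100A4 and S100A6 lie farthest to the right, the square of S100B alone lies to the left of 0, and the red points of S100A1 lie apart at 0.67 and -0.03.

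Over all 10271 genes, 0.0584% passed limma at an adjusted p of 0.05 in either direction, and 0 of the 8 tested members did. The log2 fold change was above 0 in 7 members, against 41.4% of all genes, and at least 1 in 2 (S100A4 and S100A6), against 1.58%. At an unadjusted limma p under 0.05, 4 members were higher (S100A4, S100A6, S100A11 and S100A13), where 6.06% of all genes were, and 1 member was lower (S100B), where 10.2% were. Both resistant libraries lay above both parental libraries in 5 of the 8 members, against 19.1% of all genes, and below both in 1, against 31.8%. The median log2 fold change of the 8 was 0.47, against -0.08 over all genes tested. These counts describe a list whose members were chosen with results of these data known, and no test was made of the list. The division of all genes at an unadjusted p under 0.05 into 622 higher and 1045 lower turned to 916 and 886 with median-of-ratios scaling, and under that scaling, quantile normalization and a common sum of FPKM S100A4, S100A6, S100A10, S100A11 and S100A13 kept a log2 fold change above 0 and S100B one below 0.

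Some of these levels are uncertain because of overlapping genes, since no source used here says whether strand was used in counting. S100A1 (chromosome 1 from 153627926 to 153632039 in GENCODE release 29 on GRCh38, plus strand) shares 3435 bases with S100A13 (153618787 to 153631360, minus strand), so without strand their reads in that stretch could not be told apart. AL162258.1, a processed transcript on the minus strand, shares 4114 bases with S100A1 and 5029 bases with S100A13. S100A1 also overlaps the antisense gene AL162258.2. The FPKM ratio of S100A1 to S100A13 was 3.77 and 5.35 in parental against 4.94 and 2.92 in resistant libraries, with overlap between the groups. S100A4 (153543613 to 153550136, minus strand) spans S100A3 on the same strand. S100A6 (153534599 to 153536244) and S100A11 (152032506 to 152047907) each overlap an antisense gene, and S100PBP (32816767 to 32858879) overlaps the tRNA synthetase gene YARS on the opposite strand. S100A11 also has 2 processed pseudogenes on chromosome 7, S100A11P1 and S100A11P2. S100A10 (151982915 to 151994390), S100A16 (153606886 to 153613145) and S100B (chromosome 21 from 46598962 to 46605208) overlap no other annotated gene there. All 9 are protein-coding.

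The summed FPKM of the 8 S100 genes with a value, leaving out S100PBP, was 500 and 489 in parental against 731 and 804 in resistant libraries. The mean was 495 ± 7.76 against 768 ± 51.4 FPKM (SD, n = 2 each), a ratio of 1.55. An exact two-sided permutation test gave p = 0.333, the smallest that 2 against 2 libraries allow. As a share of all FPKM the S100 genes took 0.177% and 0.173% in parental against 0.25% and 0.274% in resistant libraries. The sum is mostly S100A11, which took 71.9% and 70.5% of it in parental against 67.7% and 77.2% in resistant libraries.

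Within the sum, the share of S100A11 overlapped between the groups, as did those of S100A1 and S100A13. S100A6 took 2.39% and 2% of it in parental against 3.74% and 4.35% in resistant libraries. The share of S100A4 was 0.166% and 0.319% in parental against 0.998% and 0.928% in resistant libraries. S100B went from 0.452% and 0.563% to 0.106% and 0.12%. The share of S100A10 was 1.81% and 1.75% in parental against 1.67% and 1.44% in resistant libraries, so it was slightly smaller while its level was higher. Without S100A11 and S100A1 the sum was 48.6 and 41.9 FPKM in parental against 80 and 87.9 FPKM in resistant libraries.

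**Figure D3:**
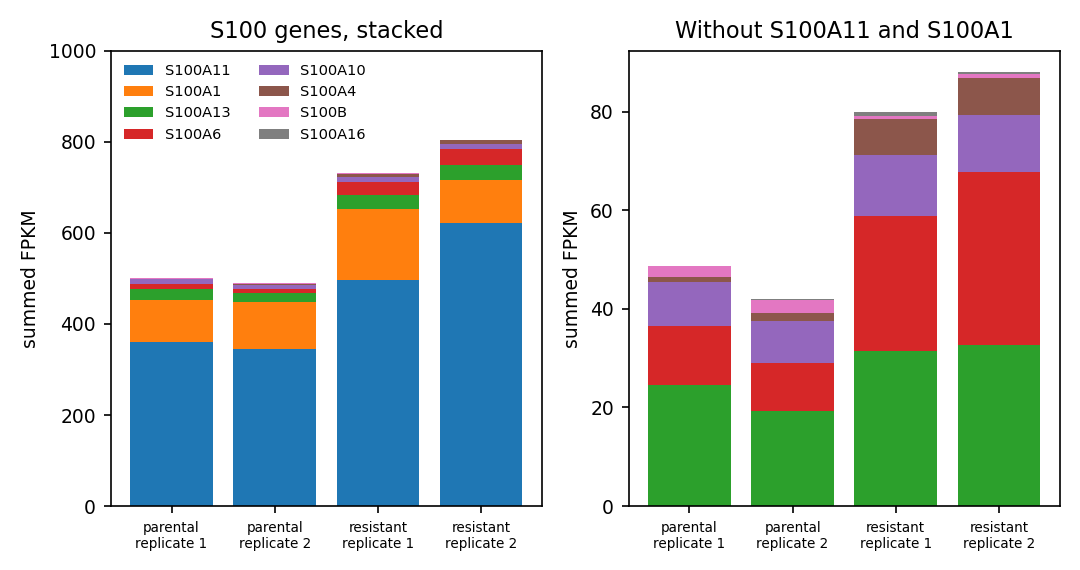
Summed FPKM of the 8 S100 genes in each library, stacked by gene (left), and the same without S100A11 and S100A1 on its own scale (right). The resistant bars reach 731 and 804 FPKM against 500 and 489 in the parental libraries, and on the right the S100A6 (red) and S100A4 (brown) parts are taller in both resistant bars than in both parental bars.

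S100A6 and S100A10 were neighbours in level in parental cells and farther apart in resistant cells. The FPKM ratio of S100A6 to S100A10 was 1.32 and 1.15 in parental against 2.24 and 3.02 in resistant libraries, which did not overlap (exact two-sided permutation p = 0.333, the smallest possible). The ratio of S100A4 to S100A11 was 0.00231 and 0.00452 in parental against 0.0147 and 0.012 in resistant libraries. The ratio of S100A11 to S100A10 was 39.8 and 40.3 in parental against 40.6 and 53.6 in resistant libraries, where resistant replicate 1 was close to the parental values.

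The listed S100A genes span chromosome 1 from 151982915 to 153632039, an interval with 64 protein-coding genes in GENCODE release 29, among them the genes of the outer skin layer. Only 9 of these had a value, 7 of them listed S100 genes. The other 2 were S100A9, a subunit of calprotectin, and SPRR2B, a small proline-rich protein of the cornified envelope. S100A9 was listed at 0 in parental replicate 1, while parental replicate 2 had 0.133 FPKM and the resistant libraries 0.648 and 0.487 FPKM. SPRR2B was listed at 0 in 3 libraries and stood at 1.39 FPKM in resistant replicate 2. Both were under the minimum mean and not tested. Their parental means, 0.0663 and 0 FPKM, were under 0.501 FPKM, the smallest larger group mean of any gene. S100A9 and SPRR2B thus had a value through their resistant level alone and could only be higher there. Of 12 further S100 genes looked for, S100A9 alone had a value, and the other 11, S100P among them, were not analysed here.

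Genes of S100 binding partners and receptors lay on both sides of 0. Of 26 on the list, 23 had a value and 22 were tested, with 0 past the adjusted threshold in either direction. At an unadjusted limma p under 0.05, 1 was higher and 2 were lower, where 6.06% and 10.2% of all genes were. The median log2 fold change was -0.20, with 6 members above 0 and 16 below, against -0.08 and 41.4% above 0 over all genes tested.

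The annexins differed among themselves. ANXA1, the partner of S100A11, stood at 4.46 and 4.93 FPKM in parental and at 20.4 and 14.8 FPKM in resistant libraries (log2 fold change 1.69 ± 0.22 SE, limma adjusted p = 0.0788). The FPKM ratio of S100A11 to ANXA1 was 80.7 and 69.9 in parental against 24.3 and 42 in resistant libraries. ANXA2, the partner of S100A10, overlapped between the groups at 35.8 and 37.8 against 46 and 37.5 FPKM, and the ratio of S100A10 to ANXA2 was 0.253 and 0.227 in parental against 0.265 and 0.309 in resistant libraries. ANXA11 stood at 15.5 and 14.9 FPKM in parental and at 9.72 and 7.95 FPKM in resistant libraries (-0.73 ± 0.18 SE, limma adjusted p = 0.194). ANXA6 stood at 23.1 and 18.3 against 14.7 and 10.1 FPKM (-0.71 ± 0.24 SE, limma adjusted p = 0.273). Of the 5 annexins listed, 1 was thus above and 2 were below their parental libraries without overlap, and ANXA2 and ANXA5 overlapped. Of all genes tested, 19.1% were above and 31.8% below without overlap.

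Values for partners of S100A4 and S100A6 are set beside them here. MYH9, the non-muscle myosin heavy chain bound by S100A4, stood at 40.1 and 34.4 FPKM in parental and at 40.8 and 31 FPKM in resistant libraries, with overlap. The ratio of S100A4 to MYH9 was 0.0207 and 0.0453 in parental against 0.179 and 0.241 in resistant libraries. CACYBP, bound by S100A6, stood at 39.1 FPKM in both parental and at 32.3 and 30 FPKM in resistant libraries (-0.32 ± 0.15 SE, limma adjusted p = 0.361). AGER, the receptor gene, stood at 1.17 and 0.874 FPKM in parental and at 0.494 and 0.482 FPKM in resistant libraries, and lay under the minimum mean. Its resistant mean, 0.488 FPKM, was under 0.501 FPKM, the smallest larger group mean of any gene. AGER thus had a value through its parental level alone and could only be lower in resistant libraries. ANXA5 (log2 fold change 0.13 ± 0.24 SE) and CAPZA1 (-0.23 ± 0.36 SE) had the highest mean FPKM among the rest of the list.

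**Figure D4:**
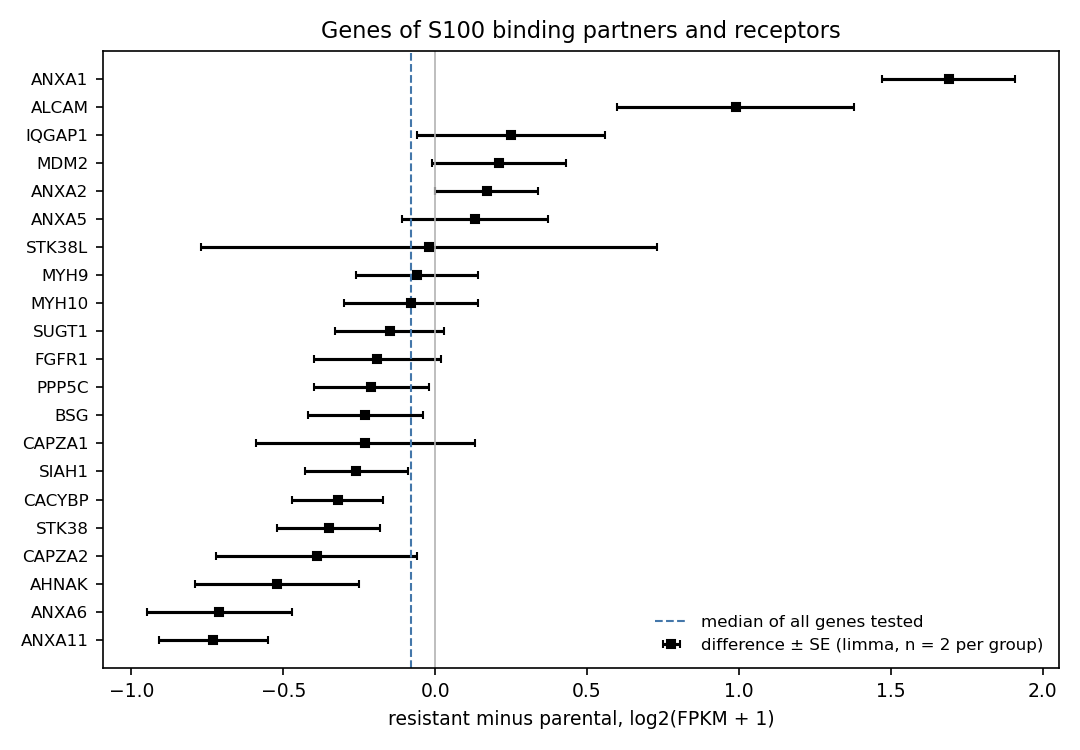
Resistant minus parental difference on the log2(FPKM + 1) scale for 21 of the 22 tested genes of S100 partners and receptors (squares, ± SE from limma, n = 2 per group), with the median of all genes tested dashed. ANXA1 lies at 1.69, ANXA11 and ANXA6 lie lowest at -0.73 and -0.71, and MYH9 and MYH10 lie near 0.

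Other genes of the EF-hand superfamily, to which the S100 proteins belong, were taken as a further list. All 27 with a value, of 28 on the list, were tested, and 0 passed the adjusted threshold. The median log2 fold change was -0.09, with 11 above 0 and 16 below, against -0.08 and 41.4% above 0 over all genes tested. At an unadjusted limma p under 0.05, 1 was higher and 3 were lower, where 6.06% and 10.2% of all genes were. CALM2, one of the genes for calmodulin, stood at 59.3 and 62.5 FPKM in parental and at 86 and 91.3 FPKM in resistant libraries (0.53 ± 0.14 SE, limma adjusted p = 0.205). CALM3, which encodes the same protein, stood at 57.7 and 49.9 against 8.49 and 28.4 FPKM (-1.71 ± 0.53 SE, limma adjusted p = 0.242), with the resistant libraries far apart. CHP1, a calcineurin-like regulator of sodium-proton exchange (-0.47 ± 0.16 SE, limma adjusted p = 0.263), and the endoplasmic reticulum protein RCN2 (-0.48 ± 0.19 SE, limma adjusted p = 0.306) were lower in both resistant libraries. CETN2 (-0.09 ± 0.15 SE) and EFHD1 (0.13 ± 0.19 SE) had the highest mean FPKM among the rest.

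S100A4 is also used as a marker of fibroblasts, and several S100 genes are expressed in epithelia, so markers of those cells are given beside it. Of 10 fibroblast markers 3 had a value, and their sum was 5.2 and 6.01 FPKM in parental against 9.59 and 7.34 FPKM in resistant libraries. Of these COL1A2 stood at 0.00848 and 0.00683 against 0.747 and 0.531 FPKM and COL1A1 at 0.742 and 0.841 against 1.16 and 1.89 FPKM. LUM, which made up most of the sum, overlapped between the groups at 4.45 and 5.16 against 7.69 and 4.92 FPKM. No gene in the deposited values had a larger group mean under 0.501 FPKM, so COL1A2 had a value through its resistant level alone. Of 10 epithelial markers 6 had a value, without EPCAM, CDH1, KRT5 and KRT14, and their sum was 11.6 and 13.3 FPKM in parental against 22.8 and 31.2 FPKM in resistant libraries. The parental means of KRT8, KRT19, KRT7 and SFN, at 0.308, 0.246, 0.124 and 0.28 FPKM, were also under 0.501 FPKM. Those genes thus had a value through their resistant level alone and could only be higher there. Of 9 leukocyte markers 2 had a value, CD68 and LCP1, with a sum of 32.6 and 27.4 against 13.2 and 10.7 FPKM. PTPRC, CD14, LYZ, CD3E, MS4A1, ITGAM and AIF1 had none. Of 7 Schwann and glial markers, a lineage in which S100B is high, 3 had a value, with a sum of 15.7 and 16.3 against 23.7 and 19.3 FPKM. No marker with a value was at 0 in all libraries, which follows from the smallest larger group mean of 0.501 FPKM. The part of such cells or programmes in the S100 values was not tested, and fewer cells of a kind and less RNA per cell cannot be told apart in bulk RNA.

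By the smallest Euclidean distance of the 4 centred log2(FPKM + 1) values, the tested genes with a pattern most like that of S100A4 were FTH1, F2R and CXCL8, at distances of 0.21, 0.26 and 0.327 over 4 libraries. FTH1, the ferritin heavy chain, had a log2 fold change of 1.83 ± 0.24 SE (limma adjusted p = 0.081). F2R, a thrombin receptor, stood at 14.4 and 17.1 FPKM in parental and at 55.2 and 67.1 FPKM in resistant libraries. CXCL8, a chemokine, stood at 0.834 and 1.42 against 5.37 and 5.71 FPKM. With 2 libraries a group, many genes that differ by about as much have a like pattern.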

How the data were processed

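RNA was sequenced from 2 parental and 2 resistant libraries of 92.1. The deposited unit is FPKM per the file headers, with 1 value for each gene and library. The submitters' processing notes name build hg38. The aligner, the FPKM program, the annotation and the strand setting are not named in any source used here. Of 11650 identifiers, 11575 were matched to a table of current symbols and 11596 to GENCODE release 29, which gave positions. The smallest larger group mean was 0.501 FPKM, so low genes seem to have been removed before deposit.

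Values were transformed as log2(FPKM + 1). The 10271 genes whose mean reached 1 FPKM were fitted in limma 3.58.1 (R 4.3.3) with a variance trend and no block, two-sided, with Benjamini-Hochberg adjustment over all of them at 0.05. The fit was tested on simulated data. Depth is unknown, so no interval was drawn from counts. Sums, shares and ratios were made in Python 3.11.15 and compared by exact permutation tests in SciPy 1.17.1. Promoter sequences are RefSeq's (GRCh38.p14).

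The members and lists were chosen with earlier results of these data known. Named genes were all members, up to 4 genes a direction of the partner and EF-hand lists with an unadjusted p under 0.05 and no overlap (largest log2 fold change first), their 2 others of highest mean FPKM, and the 3 genes most like the member with the largest change. The S100A interval was to give up to 2 tested neighbours a direction, and held none. Some list members are not reported here by name. The remaining genes named were chosen after their values were seen. Alternatives covered the pseudocount, the minimum, scaling, the variance trend, a replicate block and leaving out each library.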

Additional observations from a re-analysis of the deposited data

How the results depend on the processing

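The alternatives called 0 of the tested S100 members, except that leaving out 1 library gave a range of 0 to 1 (S100A4 without parental replicate 2). The number of genes called higher was 5, and 3 with a pseudocount of 0.1, with median-of-ratios scaling or with quantile normalization. Leaving out 1 library gave a range of 0 to 19 higher and 0 to 13 lower, against 1 lower with all libraries. The median log2 fold change of tested members, 0.47, was 0.61 with a pseudocount of 0.1, 0.54 with no minimum (9 members), 0.55 at a minimum mean of 5 FPKM (5 members), 0.57 with median-of-ratios scaling, 0.42 with a common sum, 0.55 with quantile normalization and 0.47 to 0.56 without 1 library. The member added with no minimum was S100A16, which had a value through its resistant level alone and could only be higher there. The log2 ratio of the summed S100 FPKM, 0.63, was 0.75 with median-of-ratios scaling and 0.56 to 0.70 without 1 library.

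Signs turned without 1 library for S100A1 (-0.03 to 0.67 over the libraries left out), S100PBP (-0.25 to 0.85), ANXA5 (-0.20 to 0.46), EFHD1 (-0.05 to 0.32) and CAPZA1 (-0.73 to 0.28), and with median-of-ratios scaling for CETN2 (0.01). The sign of S100A1, ANXA5 and EFHD1 turned without resistant replicate 1, that of S100PBP without parental replicate 1 and that of CAPZA1 without parental replicate 2. The cause was not tested. Deviations of same-numbered libraries from their group means had a correlation of -0.0709 across genes. A single value over all genes cannot tell whether such libraries shared a culture or preparation. With the replicate number as a block, 0 members, 4 higher genes and 1 lower gene were called, and the median of the members was 0.47. Depth is unknown, so values under 1 FPKM have no counting interval here. Such values were those of S100A16, of S100B in resistant libraries, and of S100A4 and S100PBP in parental replicate 1.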

Other observations

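In S100A1, resistant replicate 1 stood at 156 FPKM while the other 3 libraries lay from 92.2 to 103 FPKM. Of the 7 pigment cell markers, TYRP1 and TYR were also highest in that library, as was the S100 partner ANXA5, and these genes were chosen after their values were seen. The other pigment markers were not: there PMEL stood at 395 FPKM against 620 FPKM in parental replicate 1, MLANA at 212 against 221 FPKM and SOX10 at 54.9 against 91.8 FPKM, and DCT was lowest, at 0.486 FPKM. TYRP1 stood at 2143 FPKM there against 1484 to 1514 FPKM elsewhere. TYR, the first enzyme of melanin synthesis, stood at 177 FPKM there and at 121, 113 and 114 FPKM in the other libraries. ANXA5 stood at 446 FPKM there and at 313, 333 and 282 FPKM elsewhere. MITF was also lowest in the same library, at 9.64 FPKM, against 35.3, 37.4 and 31.8 FPKM.

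CALM2 and CALM3 encode the same protein from separate genes, and their levels lay farther apart in resistant than in parental libraries. In parental libraries CALM2 stood at 59.3 and 62.5 FPKM and CALM3 at 57.7 and 49.9 FPKM. In resistant libraries CALM2 stood at 86 and 91.3 FPKM and CALM3 at 8.49 and 28.4 FPKM. The sum of the EF-hand list was 591 and 576 FPKM in parental and 557 and 542 FPKM in resistant libraries.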
